A study of Danio rerio with 2 samples.

Results

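The 7 genes described here are *tac1*, *calca*, *sst1.1* and *nppc*, which encode peptide precursors, and *chga*, *scg2b* and *scg3*, which encode granins. They were taken by symbol from the 27771 genes of the series, and all 7 symbols were found with 1 Ensembl identifier each (*tac1* ENSDARG00000014490, *calca* ENSDARG00000056590, *sst1.1* ENSDARG00000040799, *nppc* ENSDARG00000068126, *chga* ENSDARG00000008829, *scg2b* ENSDARG00000038574 and *scg3* ENSDARG00000086288). Cells were sorted for red fluorescence from trypsin-dissociated trunks of *Tg(olig2:dsred)* zebrafish at 60 h post fertilization (hpf) and 28 hpf, and both libraries have this genotype, in which regulatory sequence of *olig2* drives the fluorescent protein. The protein outlasts *olig2* transcription, so the sort holds progenitors of the motor neuron domain together with their progeny and with other labelled cells. Each stage is 1 library of pooled embryos, so no test was possible between stages or cell types, stage and library cannot be told apart, and every interval below covers counting error only.

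Neuropeptides are made as long precursors, which are sorted into dense-core vesicles, cut by convertases and trimmed and amidated before release. Granins are acidic proteins of the same vesicles that help to load them and are themselves cut into peptides. In the zebrafish spinal cord, peptides are known above all from motor neurons and from the cerebrospinal fluid (CSF)-contacting neurons that line the central canal, which are GABAergic, and of which the dorsal ones make somatostatin and the ventral ones the urotensin-related peptides Urp1 and Urp2. The study used *tac1* as a probe for motor neurons *in situ*, and its primers are shown because they mark the transcript that these neurons carry at the highest level among the members.
tac1 probe, forward primer: gcgcgcattgaagaactgt
tac1 probe, reverse primer: tgatgaggtcggggtttcct

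Cells with at least 1000 genes numbered 5517 at 60 hpf, with a median of 6809 UMIs (unique molecular identifiers, each standing for 1 captured RNA molecule), and 8390 at 28 hpf, with a median of 7376. They formed 28 clusters, of which 26 were named from marker genes with the members left out of the clustering. A name ending in -like is a rebuilt class. Motor neuron-like cells were clusters 2, 6, 9 and 12 at 60 hpf (1196, 821, 599 and 390 cells) and cluster 7 at 28 hpf (745 cells). CSF-contacting neuron-like cells were cluster 19 at 60 hpf (234 cells), cluster 10 at 28 hpf (509 cells) and cluster 18, which *urp1* leads, at both stages (69 cells at 60 hpf and 171 at 28 hpf). Cluster 13 was V3 neuron-like (257 cells at 60 hpf and 122 at 28 hpf), V3 neurons being ventral glutamatergic interneurons, and clusters 0 and 5 were neuronal precursor-like at 28 hpf (1615 and 871 cells). The cholinergic transporter gene *slc18a3a* stood at 11.3 to 17.0 UMIs per 10000 UMIs in the 60 hpf motor neuron-like clusters and at 9.24 in cluster 7, against 0.80 in cluster 19 and 0.18 in cluster 10. Cluster 4 was GABAergic neuron-like (33 cells at 60 hpf and 881 at 28 hpf), but its predicted doublets made up 75.8% (60 hpf) and 23.6% (28 hpf) of it, and it also held *olig2* (12.3 at 28 hpf) and the CSF-contacting marker *pkd1l2a* (10.1 at 28 hpf). The counts and member ratios that use GABAergic neurons are therefore given with and without cluster 4, a choice made after the data were seen. The libraries shared 24 barcodes, 16 of them among the cells kept.

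The members fell into a motor neuron group and a CSF-contacting group. The highest level of *tac1*, *chga* and *calca* among neuron clusters was in a motor neuron-like cluster at each stage, and that of *sst1.1*, *nppc*, *scg2b* and *scg3* in a CSF-contacting neuron-like cluster. Levels here and below are UMIs of the gene summed over a group per 10000 UMIs of that group. All 7 members were at least 2-fold higher in neurons (motor, GABAergic, CSF-contacting and V3 neuron-like cells) than in progenitors at 60 hpf, where 28.5% of all 16506 genes with enough UMIs were higher and 20.4% lower, and all 7 again at 28 hpf, where 28.8% of 16846 genes were higher and 17.3% lower. The progenitors were the pMN progenitor-like, cycling and radial glia-like cells (630 cells at 60 hpf and 1643 at 28 hpf). Their mix differed between stages. At 60 hpf, 353 and 122 of them were in radial glia-like clusters 14 and 22, and 73 in cycling cluster 25, where *foxd3* and *krt18a.1* are among the leading genes. At 28 hpf, 1238 were in cycling cluster 1. Ratios over progenitors at 60 hpf and 28 hpf therefore rest on different reference cells. With 1 UMI added, the median log2 ratio over the members was 4.80 at 60 hpf and 5.09 at 28 hpf, against 0.26 and 0.23 over all genes. The smallest ratio was that of *scg3* at 60 hpf, with 1.79 in neurons and 0.67 in progenitors (log2 1.42, 95% interval 1.27 to 1.58). Without cluster 4 all 7 passed again, with log2 ratios of 1.38 to 5.41 at 60 hpf, where 28.5% of all genes were then higher and 20.4% lower, and 3.77 to 7.68 at 28 hpf, where 33.7% were higher and 23.7% lower. These neurons are pooled, and at 60 hpf 3020 of the 3617 were motor neuron-like. In these cells *sst1.1* was 0.19, *nppc* 0.43 and *scg3* 0.89, against 0.15, 0.33 and 0.67 in progenitors, all under 2-fold. *tac1*, *chga*, *calca* and *scg2b* were past 2-fold there. V3 neuron-like cells had *sst1.1* at 0.04 and *nppc* at 0.20, below the progenitors. At 28 hpf only *nppc* was under 2-fold in motor neuron-like cells (0.98, against 0.79 in progenitors).

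**Figure D1:**
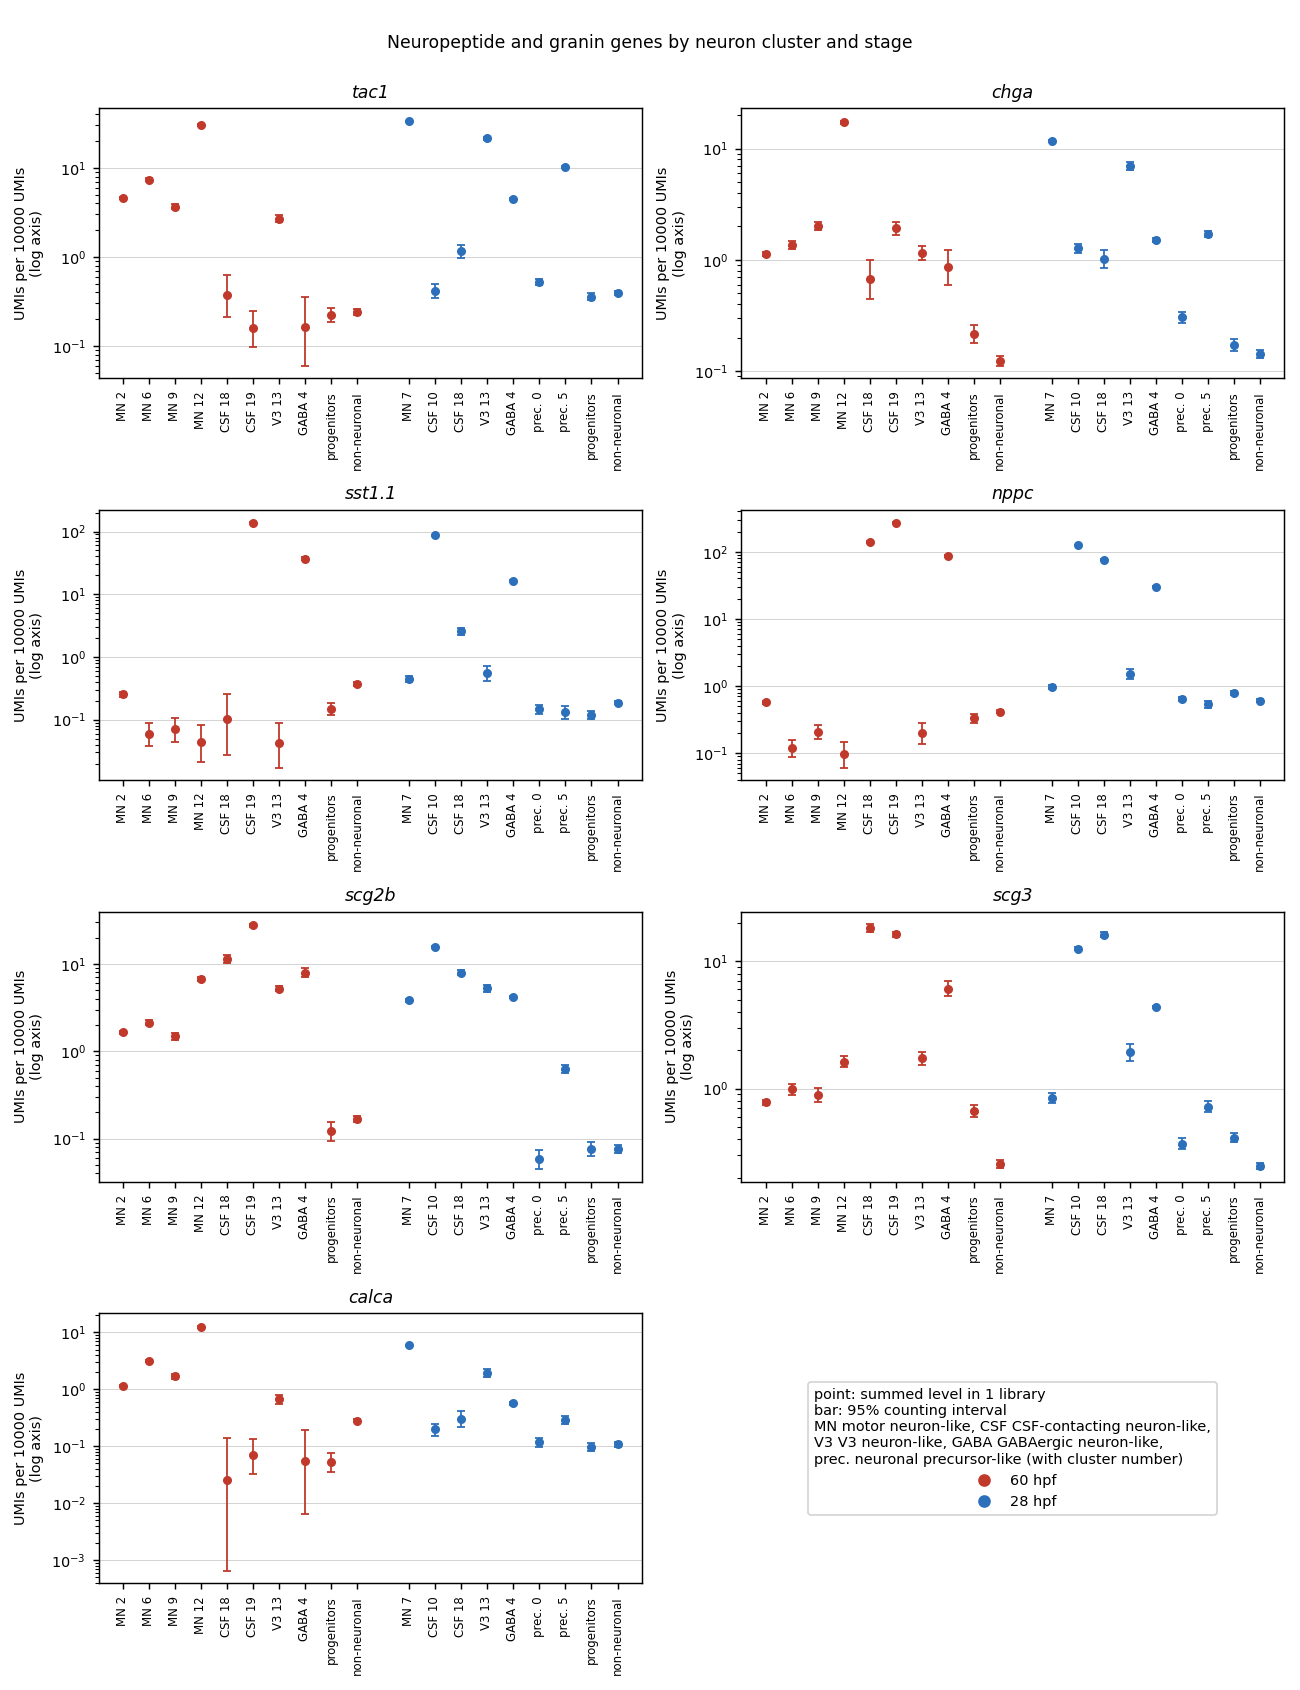
Level of each member (UMIs per 10000 UMIs, log axis) in the neuron clusters, the progenitors and the named cells outside the neurons and precursors (non-neuronal, which leaves out the unnamed cluster 16), at 60 hpf (red) and 28 hpf (blue); points are summed levels in 1 library and bars 95% counting intervals. *tac1*, *chga* and *calca* peak in motor neuron-like cluster 12 at 60 hpf (30.6, 17.3 and 12.7) and cluster 7 at 28 hpf (33.5, 11.8 and 5.96), whereas *sst1.1* and *nppc* peak in CSF-contacting neuron-like clusters 19 (138 and 272) and 10 (86.6 and 126).

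*tac1* encodes the precursor of the tachykinins substance P and neurokinin A. At 60 hpf its level was 30.6 in cluster 12 (95% interval 29.9 to 31.4), 7.40 in cluster 6, 4.56 in cluster 2 and 3.67 in cluster 9, against 0.16 in cluster 19, 0.38 in cluster 18 and 0.22 in progenitors. At 28 hpf it was 33.5 in cluster 7 (33.1 to 34.0), 10.2 in precursor cluster 5 and 0.52 in precursor cluster 0, against 0.42 in cluster 10, 1.16 in cluster 18 and 0.36 in progenitors. Of the other neuron clusters, V3 neuron-like cluster 13 came closest, with 2.69 at 60 hpf and 21.4 at 28 hpf, and cluster 4 had 4.53 at 28 hpf. Thus the summed level of *tac1* was higher in each of these motor neuron-like clusters than in the other neuron clusters of its library. In cluster 9, however, the median and the upper quartile of cells were 0, with 128 in the highest cell. Among precursors *tac1* was high in cluster 5, where *mnx1* and *isl1* are among the leading genes. At 60 hpf, 94.4% of its UMIs lay in motor neuron-like cells, against 51.7% at 28 hpf, where precursor cluster 5 held another 13.1%, cluster 4 held 13.5% and the unnamed cluster 16 held 11.1%. These shares also depend on the size of the class, which was 3020 of 5517 cells at 60 hpf and 749 of 8390 at 28 hpf. Cluster 16 had 56.1% predicted doublets. Within a cluster the level varied widely from cell to cell. In cluster 12 the median cell had 14.8 *tac1* UMIs per 10000 (quartiles 1.67 and 41.5, highest 324), and in cluster 7 the median was 23.5 (quartiles 5.89 and 49.3, highest 231). With each cell thinned to 2000 UMIs, *tac1* was found in 70.7% of cluster 12 (exact binomial 95% interval 65.9 to 75.3), 45.0% of cluster 6, 40.8% of cluster 2 and 18.7% of cluster 9 at 60 hpf, and in 81.3% of cluster 7 (78.2 to 84.1) and 33.7% of cluster 5 at 28 hpf. Unthinned, the share was 77.4% in cluster 12 and 87.2% in cluster 7. Erythroid-like cells, which should lack the transcript, gave thinned shares of 2.42% in cluster 3 and 2.17% in cluster 17 at 60 hpf and 1.95% in cluster 3 at 28 hpf, and unthinned shares of 11.1%, 13.3% and 29.8%. Their median depths were 35991, 28998 and 33266 UMIs, against 5420 in cluster 12 and 7596 in cluster 7, so thinning lowers free RNA further in them than in motor neuron-like cells, and the thinned floor is a low one. The shares in clusters 12 and 7 were above both floors of their library. The intervals of the ratios between neighbours in the order of neuron clusters held 0 only for clusters 18, 4 and 19 at 60 hpf, so these could not be ordered.

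*calca* encodes calcitonin and calcitonin gene-related peptide, a peptide of motor neurons in mammals. Its level at 60 hpf was 12.7 in cluster 12 (12.2 to 13.2), 3.15 in cluster 6, 1.69 in cluster 9 and 1.15 in cluster 2, against 0.07 in cluster 19 and 0.05 in progenitors. At 28 hpf it was 5.96 in cluster 7 (5.78 to 6.15), against 0.20 in cluster 10 and 0.10 in progenitors, and precursor cluster 5 had 0.29. *calca* therefore followed *tac1* over the motor neuron-like clusters at 60 hpf except that clusters 9 and 2 changed places, and in precursor cluster 5 it stood near the level of CSF-contacting cluster 18 (0.31), where *tac1* did not. After thinning, 76.3% of cluster 12 and 49.7% of cluster 7 had a *calca* UMI, against 0.97% and 1.24% of erythroid-like clusters 3 and 17 at 60 hpf and 2.50% of erythroid-like cluster 3 at 28 hpf. Unthinned, the shares were 89.0% in cluster 12 and 71.8% in cluster 7, against 11.1% and 10.5% of erythroid-like clusters 3 and 17 at 60 hpf and 21.2% of cluster 3 at 28 hpf.

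*chga* encodes chromogranin A. Its level was 17.3 in cluster 12 (16.7 to 17.8), against 2.01 in cluster 9, 1.36 in cluster 6 and 1.14 in cluster 2, so that 47.1% of all *chga* UMIs at 60 hpf came from the 390 cells of cluster 12. At 28 hpf it was 11.8 in cluster 7 and 1.71 in precursor cluster 5. CSF-contacting cells also carried it, at 1.93 in cluster 19 and 0.68 in cluster 18 at 60 hpf and at 1.27 in cluster 10 and 1.02 in cluster 18 at 28 hpf. At 60 hpf clusters 9 and 19 were within counting error of each other, as were the neighbours from cluster 6 down (6, 13, 2, 4 and 18). After thinning, *chga* was found in 83.2% of cluster 12 and 75.6% of cluster 7, against 1.45% and 0.31% of erythroid-like clusters 3 and 17 at 60 hpf and 1.25% of erythroid-like cluster 3 at 28 hpf. Unthinned, the shares were 93.3% in cluster 12 and 91.5% in cluster 7, against 5.80% and 4.95% of erythroid-like clusters 3 and 17 at 60 hpf and 11.2% of cluster 3 at 28 hpf.

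Cluster 12 thus stood apart from the other motor neuron-like cells for most members. Its leading genes included *col19a1* and *chga* itself, and *uts1*, the precursor of urotensin 1, had 4.16 UMIs per 10000 there. Over the other 2630 motor neuron-like cells at 60 hpf, *chga* was 13.2-fold higher (log2 3.72, 3.66 to 3.79), *calca* 7.73-fold (log2 2.95, 2.88 to 3.02), *tac1* 6.23-fold (log2 2.64, 2.60 to 2.68) and *scg2b* 3.93-fold (log2 1.97, 1.89 to 2.06). The ratio of *scg3* was 1.97-fold, just under the 2-fold rule. Cluster 2 weighed most in this reference and in the summed level of all motor neuron-like cells at 60 hpf. It had 1196 cells with a median of 11524 UMIs, against medians of 3930 in cluster 6 and 4627 in cluster 9. In this comparison 4 members were higher and 2 lower, where 15.3% of all genes were higher and 15.7% lower. The 2 lower ones, *sst1.1* (0.04 and 0.20) and *nppc* (0.10 and 0.46), were near 0 in both groups, and with predicted doublets removed their log2 ratios were -0.05 and -0.74, under the rule. At 28 hpf cluster 7 held 745 of the 749 motor neuron-like cells. Set against it, cluster 12 had nearly the same *tac1* (30.6 in cluster 12 at 60 hpf and 33.5 in cluster 7 at 28 hpf, log2 -0.13, -0.17 to -0.09), 1.47-fold more *chga* and 2.13-fold more *calca*.

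*tac1*, *chga* and *calca* were found in the same cells of these clusters about as often as their single shares give. After thinning, 58.2% of cluster 12 had both *tac1* and *chga*, where the product of the shares is 58.9%, and 53.7% had *tac1* and *calca*, where the product is 54.0%. In cluster 7 the pairs were found in 65.4% (product 61.4%) and 42.7% (product 40.4%) of cells. A joint share can be as large as the smaller of the single shares, which was above the product for each pair. In cluster 12 neither pair was above its product, and in cluster 7 both were slightly above it. In cluster 9, where shares were lower, 4.81% of cells had *tac1* and *calca* against a product of 1.83%. There 25.7% of the cells with *tac1* had *calca*, against 6.13% of those without.

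The V3 neuron-like cluster held *tac1* at 2.69 at 60 hpf and at 21.4 at 28 hpf, with *chga* at 1.16 and 6.97 and *calca* at 0.67 and 1.95 at the same stages. Its cells were not uniform. At 28 hpf the median cell had 1.45 *tac1* UMIs per 10000, the upper quartile 40.0, and *slc18a3a* was present at 4.36. Cells of the cluster were therefore split by transmitter genes, as cholinergic (at least 2 UMIs of *slc18a3a*, *chata* and *slc5a7a*) or glutamatergic (at least 2 UMIs of *slc17a6a* and *slc17a6b*), each with fewer than 2 UMIs of the other sets. At 28 hpf *tac1* was 57.5 in the 52 cholinergic cells (54.9 to 60.2) and 0.27 in the 24 glutamatergic cells (0.09 to 0.63). At 60 hpf it was 22.4 in the 22 cholinergic cells and 0.06 in the 94 glutamatergic cells. *chga* was 6.08 in cholinergic and 0.65 in glutamatergic cells at 60 hpf and 19.1 and 0.54 at 28 hpf. *calca* was 5.10 and 0.03 at 60 hpf and 5.10 and 0.05 at 28 hpf. *uncx*, a V3 transcription factor gene, ran the other way, at 0.58 in the cholinergic and 9.91 in the glutamatergic cells at 28 hpf. The motor neuron marker *mnx1* went with *tac1*, at 2.66 in cholinergic and 0.05 in glutamatergic cells at 60 hpf and at 0.93 and 0.05 at 28 hpf, and *isl1* was 1.74 and 0.80 at 60 hpf and 0.93 and 0 at 28 hpf. The intervals of *scg3* overlapped, at 1.89 in cholinergic and 1.62 in glutamatergic cells at 28 hpf. *scg2b* changed direction between stages, at 5.42 in cholinergic and 7.83 in glutamatergic cells at 60 hpf and 10.5 and 3.29 at 28 hpf. The cholinergic and glutamatergic cells were 8.56% and 36.6% of the cluster at 60 hpf and 42.6% and 19.7% at 28 hpf. The split does not describe the remaining cells. Of all UMIs of the cluster, the cholinergic cells held 413 of 443 for *tac1*, 94 of 111 for *calca* and 112 of 191 for *chga* at 60 hpf, and 1793 of 2020, 159 of 184 and 595 of 657 at 28 hpf. The level of *tac1* in the V3 neuron-like class depended on the clustering, from 0.05 with cells chosen by transmitter genes to 3.61 with at most 4000 genes at 60 hpf, and from 0.19 to 45.8 under the same settings at 28 hpf.

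**Figure D2:**
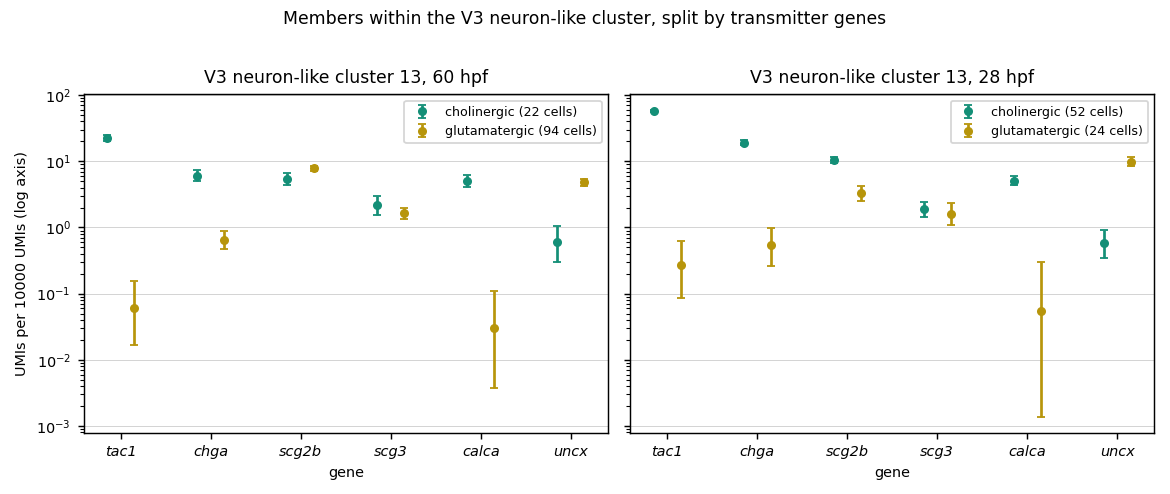
Levels (UMIs per 10000 UMIs, log axis) of 5 members and of *uncx* in cells of the V3 neuron-like cluster at 60 hpf (left) and 28 hpf (right), split into cholinergic (green) and glutamatergic (yellow) cells; bars are 95% counting intervals. *tac1* is 22.4 in cholinergic and 0.06 in glutamatergic cells at 60 hpf and 57.5 and 0.27 at 28 hpf, while the *scg3* intervals overlap at both stages.

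*sst1.1* encodes a somatostatin, in zebrafish a peptide of dorsal CSF-contacting neurons. Its level was 138 in cluster 19 (136 to 140), against 0.10 in cluster 18, at 60 hpf, and 86.6 in cluster 10 (85.6 to 87.6), against 2.55 in cluster 18, at 28 hpf. Cluster 18 is the one with *urp1* at 227 at 60 hpf and 116 at 28 hpf. In motor neuron-like cells *sst1.1* was 0.19 at 60 hpf and 0.45 at 28 hpf, and in progenitors 0.15 and 0.12. *sst1.1* thus divided the CSF-contacting cells almost completely at 60 hpf. Of its UMIs, 84.7% at 60 hpf came from cluster 19, while at 28 hpf 55.4% came from cluster 10 and 41.0% from cluster 4. After thinning, 99.6% of cluster 19 had a *sst1.1* UMI at 60 hpf, against 0 of 67 cells of cluster 18, which at this depth allows a share of cells with a UMI of up to 4.48% (3 cells of 67), while 4.35% of cluster 18 had one unthinned. At 28 hpf the shares were 96.8% in cluster 10 and 11.2% in cluster 18. Of the 299 UMIs in cluster 18 at 28 hpf, 63 came from 1 cell. Erythroid-like cells gave 1.45% in cluster 3 and 0.31% in cluster 17 at 60 hpf and 1.39% in cluster 3 at 28 hpf, and unthinned 3.86%, 2.48% and 11.0%.

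*nppc* encodes C-type natriuretic peptide. Unlike *sst1.1* it was high in both kinds of CSF-contacting cell. At 60 hpf its level was 272 in cluster 19 (269 to 275) and 140 in cluster 18 (136 to 143), and at 28 hpf 126 in cluster 10 (125 to 127) and 75.9 in cluster 18 (74.3 to 77.5). Cluster 4, with its many predicted doublets, had *nppc* at 87.6 at 60 hpf and 30.2 at 28 hpf. At 28 hpf it held 39231 of the 95528 *nppc* UMIs of the library, against 42137 in cluster 10. The ratio of the *sst1.1* clusters over cluster 18 was 1.95-fold at 60 hpf and 1.66-fold at 28 hpf for *nppc*, against 1371-fold and 34.0-fold for *sst1.1*. The count of *sst1.1* in cluster 18 at 60 hpf was 4 UMIs, so the log2 interval there ran from 9.06 to 12.30. In motor neuron-like cells *nppc* stood at 0.43 at 60 hpf and 0.98 at 28 hpf. In the median cell of cluster 19, *nppc* made up 260 UMIs per 10000, with no cell below 33.5, and *sst1.1* 137. In cluster 10 the medians were 116 and 77.9.

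**Figure D3:**
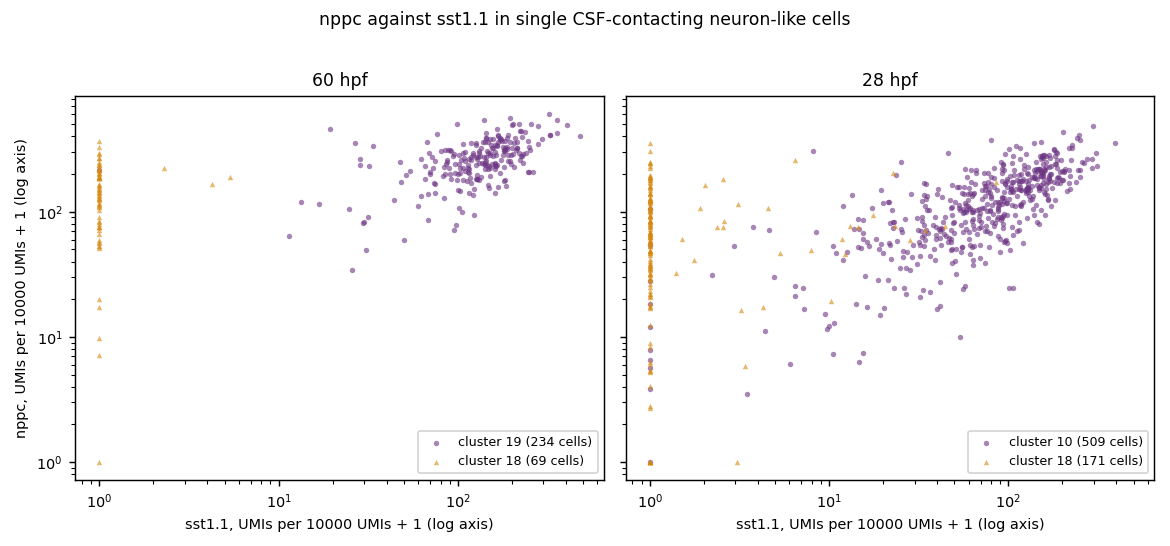
*nppc* against *sst1.1* in single cells (UMIs per 10000 UMIs + 1, log axes) of clusters 19 and 18 at 60 hpf (left) and clusters 10 and 18 at 28 hpf (right). Cells of clusters 19 and 10 (circles) mostly lie high on both axes, and most cells of cluster 18 (triangles) lie at 0 UMIs of *sst1.1* (drawn at 1) with *nppc* present (a *sst1.1* UMI is in 4.35% of cluster 18 at 60 hpf and in 17.5% at 28 hpf).

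Outside their clusters, the low levels of these very abundant transcripts may hold free RNA, which keeps the counts of its genes in 1 ratio over all cell types of a library. The ratio of the whole library is set mostly by the CSF-contacting cells and cluster 4 and is not a direct measure of free RNA. At 60 hpf *nppc* had 2.24 UMIs for each *sst1.1* UMI in the whole library, 2.27 in motor neuron-like cells (2.05 to 2.51) and 2.50 in erythroid-like cells (2.09 to 3.01). The ratio in motor neurons at 60 hpf did not differ from that of the library beyond counting error, whereas OPC/OL-like cells had 3.79. Most of these motor neuron UMIs lay in cluster 2, with 1127 of 1266 for *nppc* and 501 of 558 for *sst1.1*. There the upper quartile of cells was 0 for both genes, the highest cell had 58.6 and 25.7, and 65 of 1196 cells were predicted doublets. At 28 hpf the library had 1.82 (1.81 to 1.84), erythroid-like cells 2.11 (1.82 to 2.45), motor neuron-like cells 2.17 (1.89 to 2.49) and progenitors 6.61 (5.65 to 7.78). Other groups at 28 hpf were above the library too, with 4.26 in precursors, 3.60 in floor plate-like cells, 6.08 in the unnamed cluster 16 and 2.73 in V3 neuron-like cells, so the excess was not particular to the progenitors, where *nppc* stood at 0.79. The parts of free RNA and of doublets in these levels were not tested.

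*scg2b* encodes a secretogranin II and *scg3* encodes secretogranin III, which in mammals binds chromogranin A on the vesicle membrane. Both were found in every neuron cluster and were highest in CSF-contacting cells. *scg2b* was 27.7 in cluster 19 (26.8 to 28.6), 11.4 in cluster 18, 6.78 in cluster 12 and 1.49 to 2.13 in clusters 9, 2 and 6 at 60 hpf, against 0.12 in progenitors. At 28 hpf it was 15.6 in cluster 10, 7.91 in cluster 18 and 3.84 in cluster 7, against 0.08 in progenitors. *scg3* was 18.2 in cluster 18 and 16.2 in cluster 19 at 60 hpf, and 16.2 in cluster 18 and 12.5 in cluster 10 at 28 hpf. Unlike *scg2b*, it was as high in cluster 18 as in the *sst1.1* clusters, or higher (log2 -0.17 at 60 hpf, -0.29 to -0.04, and -0.37 at 28 hpf, -0.45 to -0.29). All neighbouring clusters in the order of *scg2b* were apart by more than counting error, whereas for *scg3* at 60 hpf clusters 13 and 12 were not, nor clusters 6 and 9. In motor neuron-like cells *scg3* was 0.89 at 60 hpf and 0.85 at 28 hpf, close to the 0.67 of progenitors at 60 hpf and above the 0.41 of progenitors at 28 hpf. After thinning, *scg2b* and *scg3* were found together in 88.7% of cluster 19 (product 88.5%) and 75.4% of cluster 10 (product 73.4%). In cluster 12 they were found together in 15.2% of cells (product 15.1%).

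Motor neurons were then compared with the GABAergic and CSF-contacting neurons of the same library. At 60 hpf *calca* and *tac1* were at least 2-fold higher in the 3020 motor neuron-like cells than in the 340 GABAergic and CSF-contacting cells (log2 5.41, 4.61 to 6.37, and 5.11, 4.67 to 5.59), and *sst1.1* (-8.92), *nppc* (-8.94), *scg3* (-4.05) and *scg2b* (-3.30) were lower. That is 2 higher, where 14.2% of all genes were, and 4 lower, where 20.7% were. *chga* was 2.55 in motor neurons and 1.5 in GABAergic and CSF-contacting neurons (log2 0.77, 0.60 to 0.94), under the rule, but it passed with a mean over cells (1.23), with at most 4000 genes (1.25) and with each library clustered alone (1.33). At 28 hpf, with 749 and 1564 cells, *calca* (log2 3.64, 3.53 to 3.75), *tac1* (3.25, 3.21 to 3.29) and *chga* (3.03, 2.97 to 3.10) were higher, and *sst1.1* (-6.01), *nppc* (-5.72) and *scg3* (-2.99) lower. That is 3 higher, where 12.6% of all genes were, and 3 lower, where 19.1% were. *scg2b* was 3.83 in motor neurons and 6.66 in GABAergic and CSF-contacting neurons (log2 -0.80, -0.86 to -0.74). Without cluster 4 all these ratios at 28 hpf were farther from 0, at 5.79 for *tac1*, 4.73 for *calca*, 3.28 for *chga*, -7.17 for *sst1.1*, -6.86 for *nppc*, -4.0 for *scg3* and -1.84 for *scg2b* on the log2 scale, so that *scg2b* also passed as lower. There 16.9% of all genes were higher and 14.7% lower. At 60 hpf, where cluster 4 held 33 cells, leaving it out changed no member's call, and of all genes 17.5% were then higher and 21% lower. With predicted doublets removed *tac1* and *scg2b* at 28 hpf had 6.02 and -1.86.

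**Figure D4:**
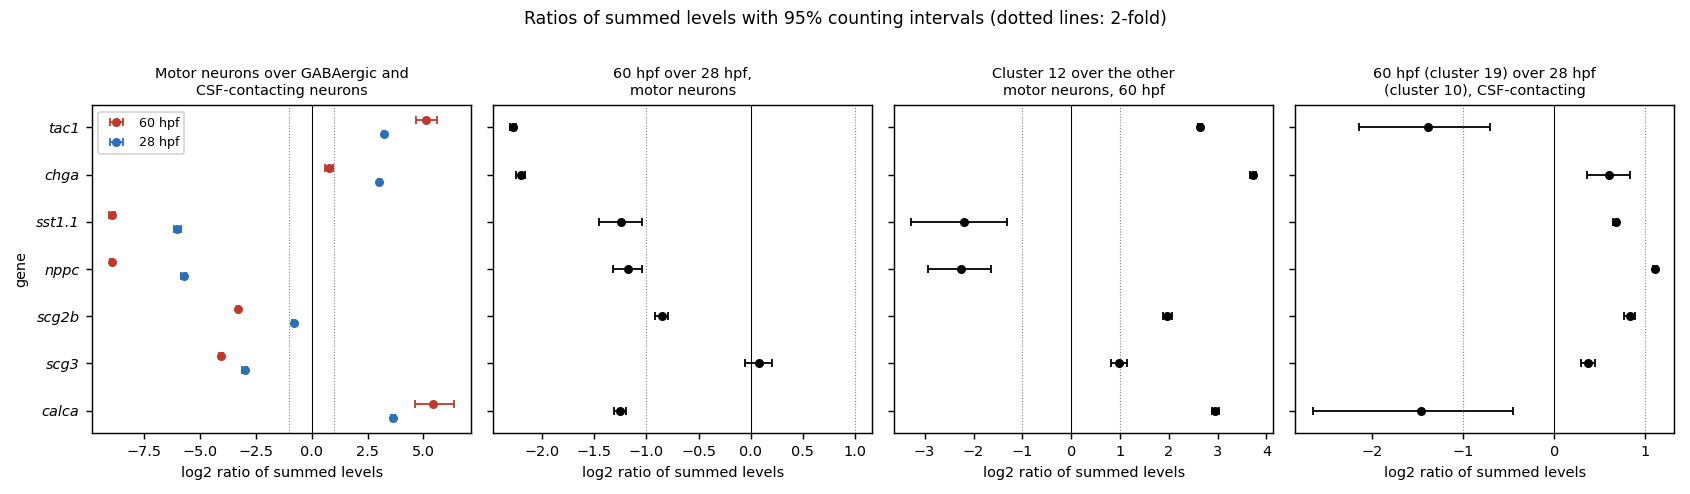
Log2 ratios of summed levels with 95% counting intervals for the 7 members, from left to right motor neurons over GABAergic and CSF-contacting neurons at 60 hpf (red) and 28 hpf (blue), 60 hpf over 28 hpf in motor neurons, cluster 12 over the other motor neurons at 60 hpf, and cluster 19 at 60 hpf over cluster 10 at 28 hpf; dotted lines mark 2-fold. *tac1* and *calca* lie right of 2-fold and *sst1.1*, *nppc* and *scg3* left of it in motor neurons at both stages.

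Between stages the class of motor neuron-like cells was held by different clusters, 2, 6, 9 and 12 at 60 hpf and 7 at 28 hpf, and the precursor clusters at 28 hpf were not part of it. *tac1* was 6.91 at 60 hpf and 33.5 at 28 hpf (log2 -2.28, -2.30 to -2.25), and *chga* was 2.55 at 60 hpf and 11.7 at 28 hpf (log2 -2.21, -2.25 to -2.16). Both kept this direction and stayed past 2-fold under all alternatives, with log2 ratios of -1.29 to -2.46 for *tac1* and -1.06 to -2.58 for *chga*. *calca* was 2.50 at 60 hpf and 5.95 at 28 hpf (log2 -1.25), but its ratio was -0.84 with predicted doublets removed, -0.31 with cells chosen by transmitter genes and 0.10, the other direction, with each library clustered alone. *sst1.1* (log2 -1.25) and *nppc* (-1.18) were lower too, at levels under 1 in both libraries. *scg2b* (-0.86) and *scg3* (0.07, -0.06 to 0.21) did not pass. No member was higher at 60 hpf, where 15.4% of all genes were, and 5 were lower, where 11.8% were, around a median over all genes of 0.19. Cluster 12 was the motor neuron-like cluster with the highest *tac1*, *chga* and *calca* at 60 hpf. Set against cluster 7, which held nearly the whole class at 28 hpf, cluster 12 had log2 ratios of -0.13 for *tac1*, 0.55 for *chga* and 1.09 for *calca*, of which *calca* passed as higher. Because cluster 12 is the highest for these genes, this comparison cannot show whether the differences of the class were absent.

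In the CSF-contacting clusters with *sst1.1*, *nppc* was 272 at 60 hpf (cluster 19) and 126 at 28 hpf (cluster 10), a log2 ratio of 1.11 (1.09 to 1.13) that passed the rule. *scg2b* (0.83), *sst1.1* (0.67), *chga* (0.60) and *scg3* (0.37) had ratios above 0 and under 2-fold. That is 1 member higher, where 18.5% of all genes were, and 2 lower, *tac1* (0.16 at 60 hpf and 0.42 at 28 hpf) and *calca* (0.07 and 0.20), where 10.8% were. The median over all genes was 0.34, so the ratio of *scg3* was near that of a typical gene. Cluster 4, which had *sst1.1* at 37.0 at 60 hpf and 16.5 at 28 hpf, was not part of this comparison. The ratio of *nppc* was 0.74 with at most 4000 genes and 20% mitochondrial UMIs and 0.39 with each library clustered alone, both under the rule. In these settings the cluster matched to cluster 10 held partly other cells. Its Jaccard index with cluster 10 (cells in both over cells in either) was 0.54 and 0.52. In cluster 18 the log2 ratio of *nppc* between 60 hpf and 28 hpf was 0.88 (0.83 to 0.93) and that of *scg3* 0.17 (0.05 to 0.30).

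The genes whose levels were most like those of a member over the 30 library-by-cluster groups with at least 50 cells were found among 14972 genes, by Pearson's r of log2 levels with 0.1 added. This is a description, since the groups share libraries and lineages. The nearest to *tac1* were *npr2*, a receptor gene for C-type natriuretic peptide (r = 0.95), *vsnl1a* (0.94) and the choline transporter gene *slc5a7a* (0.93). *slc5a7a* is among the 9 marker genes used to name motor neuron-like clusters and among the genes of the cholinergic split. The nearest to *chga* was *cplx2l*, a complexin gene (0.97), followed by *si:ch211-278j3.3* (0.95) and *fgf12b* (0.95), and to *calca* they were *ckmt1* (0.89), *nbeal1* (0.89) and *colq* (0.86). *nppc* was nearest to *pkd1l2a* (0.98) and *pkd2l1* (0.97), channel genes of CSF-contacting neurons, and to *myo3b* (0.97). These are 3 of the 4 marker genes that named the class. *sst1.1* was nearest to *gdpd5b* (0.93), *tcf21* (0.90) and *TAFA3* (0.90). *scg2b* was nearest to the synaptic vesicle genes *sypb* (0.98) and *syngr3b* (0.98) and to *cpe* (0.98), which encodes the carboxypeptidase that trims peptides, and *scg3* to *dapk1* (0.96), *TPGS1* (0.95) and *ptbp3* (0.95). Among the members, r was highest for *tac1* and *chga* (0.87), then *scg2b* and *scg3* (0.85) and *nppc* and *scg3* (0.80), and lowest for *nppc* and *calca* (-0.27).

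The rest of the peptide pathway was described from 5 lists, of which 120 of 144 genes were found. Over progenitors, 51 list genes were higher in neurons at 60 hpf and 10 lower, of 70 with enough UMIs, where 28.5% of all genes were higher and 20.4% lower. At 28 hpf 51 were higher and 10 lower of 77, where 28.8% of all genes were higher and 17.3% lower. Without cluster 4 they were 51 and 12 of 73 at 28 hpf (all genes 33.7% and 23.7%). Motor neurons over GABAergic and CSF-contacting neurons had 18 list genes higher and 27 lower of 63 at 60 hpf (all genes 14.2% and 20.7%). At 28 hpf they had 19 higher and 24 lower of 65 (12.6% and 19.1%), or 14 higher and 20 lower of 52 without cluster 4 (16.9% and 14.7%). Between stages in motor neurons 16 were higher at 60 hpf and 24 lower of 64 (all genes 15.4% and 11.8%). In cluster 12 over the other motor neurons 18 were higher and 15 lower of 61 (15.3% and 15.7%), and in the *sst1.1* clusters at 60 hpf over 28 hpf 14 were higher and 10 lower of 41 (18.5% and 10.8%).

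**Figure D5:**
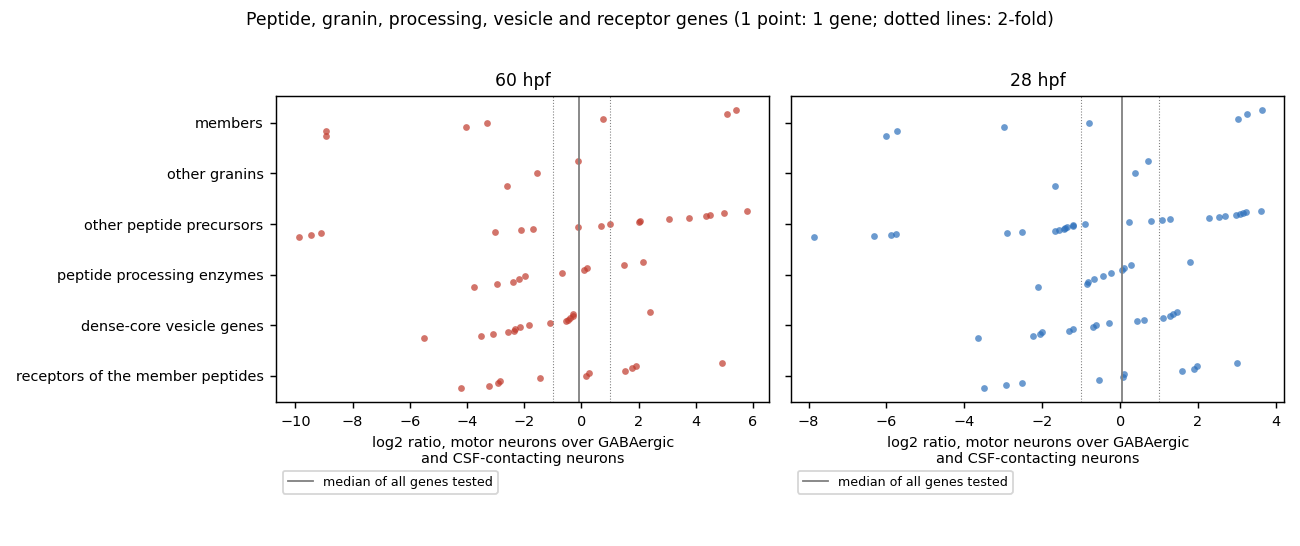
Log2 ratios of motor neurons over GABAergic and CSF-contacting neurons at 60 hpf (left) and 28 hpf (right) for the members and the 5 lists; each point is 1 gene with at least 20 UMIs in either group, the solid line is the median of all genes tested and dotted lines mark 2-fold. Genes with UMIs in only 1 of the groups of a comparison have no finite ratio and are not drawn (7 at 60 hpf and 1 at 28 hpf). The other peptide precursors that are drawn spread to both sides, from -9.89 (*urp1*) to 5.79 (*pyya*) at 60 hpf.

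All 3 other granin genes found, *vgf*, *pcsk1nl* and *chgb*, were higher in neurons than in progenitors at both stages. Of all genes, 28.5% were higher there at 60 hpf and 28.8% at 28 hpf. *vgf* was highest in cluster 19 (34.2) at 60 hpf and cluster 10 (40.2) at 28 hpf. *pcsk1nl*, which encodes the convertase inhibitor proSAAS, was highest in cluster 19 (7.11) at 60 hpf and cluster 18 (6.54) at 28 hpf. *chgb* was low throughout, at most 0.33 in cluster 12. All 3 were at least 2-fold higher in cluster 12 than in the other motor neurons, as were *chga*, *scg2b* and 15.3% of all genes.

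Of 69 peptide precursor genes found, 24 at 60 hpf and 27 at 28 hpf had enough UMIs to set motor neurons against GABAergic and CSF-contacting neurons, with 12 higher and 6 lower at 60 hpf, where 14.2% of all genes were higher and 20.7% lower, and 10 higher and 13 lower at 28 hpf, where 12.6% were higher and 19.1% lower. Without cluster 4, 10 were higher and 6 lower of 24 at 60 hpf, where 17.5% of all genes were higher and 21% lower. At 28 hpf 10 were then higher and 6 lower of 19, where 16.9% of all genes were higher and 14.7% lower. On the CSF-contacting side were *urp1* (0.05 in motor neurons, against 43.9 in GABAergic and CSF-contacting neurons, at 60 hpf) and *urp2* (0.02 and 8.73), both highest in cluster 18, and *tac3a*, the neurokinin B gene (0.02 and 11.2), highest in cluster 19. On the motor neuron side, the PACAP gene *adcyap1b* was 7.21 in motor neurons and 0.53 in GABAergic and CSF-contacting neurons at 60 hpf, *uts2d* was 0.60 and 0.03, and *pnoca* 0.21 and 0.02. *pyya* was 0.27 in motor neurons (794 UMIs in 3020 cells) and had 1 UMI in the 340 GABAergic and CSF-contacting cells. *uts2b* was 0.11 in motor neurons (325 UMIs) and also had 1 UMI in those cells. As the motor neuron group is much larger, these raw UMIs are not a fold difference. *adcyap1b* was highest in the V3 neuron-like cluster (13.9 at 60 hpf). *pyya*, a peptide YY gene, was 2.05 in cluster 12 and 0.12 in the other motor neurons, but over all neurons at 60 hpf it was lower than in progenitors (0.36 and 0.79). *sst2* and *sst1.2* also passed by more than 8-fold in motor neurons at 60 hpf over 28 hpf, but 439 of 456 *sst2* UMIs and 351 of 367 *sst1.2* UMIs came from 1 cell each. Likewise 656 of 663 *vipb* UMIs in neurons at 60 hpf came from 1 cell. In neurons over progenitors *penkb* at 60 hpf, *cckb* at 60 hpf and *galn* at 28 hpf passed at that size, with 92 of 230, 116 of 232 and 230 of 490 UMIs in 1 cell each, and *cckb* passed at 28 hpf with 192 of 215.

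Of the processing enzyme genes, 7 were higher and 2 lower in neurons than in progenitors of 10 at 60 hpf, where 28.5% of all genes were higher and 20.4% lower, and 5 were higher and 0 lower of 10 at 28 hpf, where 28.8% were higher and 17.3% lower. The convertase genes *pcsk1* and *pcsk2*, *cpe* and, at 28 hpf, the amidating enzyme gene *pam* passed by more than 8-fold. *cpe* was highest in cluster 18 at both stages (8.49 at 60 hpf and 5.35 at 28 hpf), and *pam* in cluster 19 at 60 hpf (4.81) and cluster 18 at 28 hpf (2.14). *furinb*, a convertase gene of the general secretory pathway, stayed at 0.41 or less in all neuron clusters. At 60 hpf it was 0.37 in motor neurons, above *pcsk1* (0.18) and *pcsk2* (0.11). In CSF-contacting neurons it was 0.31, below *pcsk1* (0.74) and *pcsk2* (0.57). Against GABAergic and CSF-contacting neurons, 2 enzyme genes were higher and 5 lower in motor neurons of 10 at 60 hpf, with or without cluster 4. Of all genes, 14.2% were higher and 20.7% lower there, or 17.5% and 21% without cluster 4. At 28 hpf 1 was higher and 1 lower of 10, where 12.6% of all genes were higher and 19.1% lower. Without cluster 4, 0 were higher and 2 lower of 9 at 28 hpf, where 16.9% of all genes were higher and 14.7% lower. *pam* was then among the lower ones (0.67 in motor neurons and 1.99 in CSF-contacting neurons, log2 -1.58, against -0.44 with cluster 4).

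Of the dense-core vesicle genes, 11 were higher and 1 lower in neurons than in progenitors of 16 at 60 hpf, where 28.5% of all genes were higher and 20.4% lower. At 28 hpf 12 were higher and 0 lower of 16, where 28.8% of all genes were higher and 17.3% lower. Without cluster 4 they were 14 and 0 of 16 at 28 hpf (all genes 33.7% and 23.7%). Against GABAergic and CSF-contacting neurons, 1 was higher and 9 lower in motor neurons of 15 at 60 hpf, with or without cluster 4. Of all genes, 14.2% were higher and 20.7% lower there, or 17.5% and 21% without cluster 4. At 28 hpf 4 were higher and 6 lower of 15 (all genes 12.6% and 19.1%). Without cluster 4, 0 were higher and 8 lower of 13 at 28 hpf (16.9% and 14.7%). *cadpsb* and *cadpsa* encode the priming factor CAPS. *cadpsb* was highest in cluster 12 (4.70) at 60 hpf and cluster 7 (3.61) at 28 hpf, and *cadpsa* in cluster 19 (4.40) and cluster 10 (5.16). *cadpsa* was lower in motor neurons than in GABAergic and CSF-contacting neurons at both stages (log2 -2.16 at 60 hpf and -1.21 at 28 hpf), and *cadpsb* passed as higher at 28 hpf (log2 1.45), but without cluster 4 its log2 ratio was 0.92, under the rule. *ptprna*, a receptor phosphatase-like protein gene of the vesicle membrane, was highest in cluster 18 at both stages (6.98 at 60 hpf and 6.08 at 28 hpf), and *ptprn2* was lower in motor neurons at 60 hpf (0.19, against 2.09 in GABAergic and CSF-contacting neurons). *syt4* (2.24) and *rab3aa* (1.25) were highest in cluster 12 at 60 hpf. *ica1*, *hid1a* and *syt9b* passed by more than 8-fold as well, *ica1* in neurons over progenitors at both stages, *hid1a* at 28 hpf and *syt9b* in motor neurons at 60 hpf (0.13) over 28 hpf (0.01).

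Receptor genes of the member peptides were found in the same sort. Against GABAergic and CSF-contacting neurons, 3 were higher and 5 lower in motor neurons of 11 at 60 hpf (all genes 14.2% and 20.7%). Without cluster 4 they were 5 and 5 of 11 (17.5% and 21%). At 28 hpf 4 were higher and 3 lower of 10 (12.6% and 19.1%), or 4 and 3 of 8 without cluster 4 (16.9% and 14.7%). *npr2* was 1.03 in motor neurons and 0.03 in GABAergic and CSF-contacting neurons at 60 hpf (log2 4.91), and 2.40 and 0.30 at 28 hpf, where CSF-contacting neuron-like cells alone had 0.07. *nppc* itself was lower in motor neurons at both stages. *npr3*, the gene of the clearance receptor for natriuretic peptides, was on the CSF-contacting side, at 2.74 in cluster 19 at 60 hpf and 1.41 in cluster 10 at 28 hpf, against 0.26 and 0.05 in motor neurons. *npr1a*, another natriuretic peptide receptor gene of the list, was 1.26 in cluster 2 at 60 hpf and 1.04 in cluster 13 at 28 hpf. Whether its product acts as a receptor for the *nppc* peptide was not tested. The somatostatin receptor gene *sstr1a* stood at 0.15 in motor neurons and 1.41 in GABAergic and CSF-contacting neurons at 60 hpf (log2 -3.24) and at 0.72 and 0.24 at 28 hpf (log2 1.60). Without cluster 4 the ratio at 28 hpf was 0.38, under the rule, with 0.55 in CSF-contacting neurons. Within motor neurons at 60 hpf it was 0.75 in cluster 12 and 0.10 in the others. *calcrla*, of the receptor for calcitonin gene-related peptide, was highest in cluster 18 (6.0 at 60 hpf and 1.82 at 28 hpf). Its action as a receptor for the *calca* peptides in these cells was not tested. The substance P receptor gene *tacr1a* had 246 UMIs in the 3020 motor neuron-like cells at 60 hpf and 3 in the 749 at 28 hpf. *sstr2a* had 227 UMIs in the 2435 neurons and 5 in the 1643 progenitors at 28 hpf. These are raw UMIs of groups of unequal size, not levels.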

How the data were processed

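The authors made the deposited counts, raw UMIs per gene and cell, with Cell Ranger 5.0.0 per the file headers, from 10x Genomics 3′ V3 libraries, on build GRCz11 per the submitters' processing notes; the annotation release is not given in the sources used here. A 3′ library counts transcript ends, and genes with overlapping ends can share reads. The stage at 42 hpf was not analysed here. The members and all lists were chosen with earlier results of these data known.

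Cells with at least 1000 genes were kept (5517 at 60 hpf and 8390 at 28 hpf), without doublet removal. Each cell was brought to 10000 counts and put on a log scale, and 3924 variable genes, all list genes left out, gave 50 principal components, 15 neighbours and Louvain clusters at resolution 1 (scanpy 1.11.5, igraph 0.11.9, seed 7). Naming used the list of markers whose median log2 fold was highest and at least 1, with 3 of them in at least 5% of cells. Cells were never treated as replicates and no p-value is given. Levels have exact Poisson intervals at 95%, log2 ratios intervals conditional on the total, and shares exact binomial intervals, after thinning to 2000 UMIs. Genes passed the rule of size at 2-fold with at least 20 UMIs in either group and a pseudocount of 1 UMI. A gene was named if it was a member, among the 5 with most neuron UMIs in its list, past the rule by more than 8-fold with at least 200 UMIs, or among the 3 most like a member. Doublets were taken as the cells with the highest Scrublet scores at 0.8% per 1000 cells (806 cells). Thinning left out 149 cells at 60 hpf and 82 at 28 hpf. The rule and the intervals were tested on simulated data. Protein and promoter sequences were not used here.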

Additional observations from a re-analysis of the deposited data

Results flagged for a closer look

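Outside the neurons, a pair of members stood above the level of all named non-neuronal cells together, in a cluster that no comparison used. In skin-like cluster 23 at 60 hpf (95 cells, *krt4* at 437 UMIs per 10000), *sst1.1* was at 3.65 and *calca* at 3.44, against 0.37 and 0.28 in all named cells outside the neurons and precursors. That reference includes cluster 23 itself, which gave 628 of its 1108 *sst1.1* UMIs. Of 628 *sst1.1* UMIs, 614 came from 1 cell, and of 592 *calca* UMIs, 559 came from 1 cell. Without that cell each, the levels were 0.08 for *sst1.1* and 0.19 for *calca*. The cell with *calca* also held 7704 UMIs of *ins*, the insulin gene, 29 of *pdx1* and 1 of *krt4*, and the cell with *sst1.1* held 13 of *pdx1*, 0 of *ins* and 0 of *krt4*.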

How the results depend on the processing

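With 1 library per stage, no replicate could be left out, and no paired analysis was possible because each stage is 1 library. All 7 members were higher in neurons than in progenitors under every alternative run for that comparison. Transmitter gates gave it no value, since they name no progenitors. Of the member counts under the alternatives, 165 stayed within 1.5 times the value given and 9 did not. The count higher at 60 hpf in the *sst1.1* clusters, 1, was 4 at 1.5-fold, 3 with at least 500 genes, 2 with predicted doublets removed, and 0 both with at most 4000 genes and with each library clustered alone. The count lower there, 2, was 1 with each library clustered alone. In motor neurons at 60 hpf over 28 hpf, the 5 lower members were 3 with transmitter gates. In cluster 12 the 2 lower members were 0 with doublets removed and with each library clustered alone. Of the list counts, 34 stayed in that range and 2 left it at 50 UMIs, the genes lower in the *sst1.1* clusters (4) and in neurons at 28 hpf (5). Levels, ratios and shares were set against the counting interval of the value given. Of the levels, 274 stayed within it under the alternatives and 279 did not. Of the ratios, 269 stayed within it, 241 did not and 1 was reversed. Of the shares, 3 stayed within it and 17 did not when thinned to 1000 UMIs. The intervals given therefore do not cover the choice of processing. The reversed ratio was that of *calca* in motor neurons at 60 hpf over 28 hpf, which turned to 0.10 with each library clustered alone. The cause was not tested.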
